A study of Mus musculus with 12 samples.

Results

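The microglia identity genes are 36 genes used to mark microglia in the mouse brain, though single members need not be confined to these cells. They comprise 17 surface receptors and adhesion molecules, 4 transcription factors, 5 intracellular signalling and cytoskeletal proteins, 4 enzymes, transporters and channels, 4 endolysosomal membrane and pore proteins and 2 secreted proteins. Genes were taken by name from a set list that leaves out the complement and most lysosomal genes of microglia, and all 36 were found among the 55487 genes of the table. Whole hippocampi were sequenced with 1 library per mouse, from 6 wild-type (WT) mice and 6 USF-1 KO mice of the strain C57Bl/6JRccHsd at an age of 3 to 4 months. Both genotypes came from crosses of heterozygous parents, and the KO mice lack the transcription factor USF-1, which binds the E-box CACGTG. By the labels, the WT group held 4 females and 2 males, and the KO group 2 females and 4 males. The labels name no cell type to which the loss of USF-1 is restricted, and no cells were sorted. The question was whether these genes differed between the genotypes by a like amount, as fewer microglia would give, or whether single genes such as Kcnk13 stood apart. Kcnk13 was named in it with earlier results of these data known. Its p-values are therefore no test of a question set before the data were seen.

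Microglia are the resident macrophages of the brain. They arise in the embryo and live on signals through the receptor Csf1r, while the transcription factors PU.1 (Spi1), Irf8 and Sall1 and signalling by TGF-β keep up their identity. In the resting brain their fine processes scan the tissue, guided by purinergic receptors such as P2ry12 and by the resting potential that the potassium channel THIK-1, the product of Kcnk13, sets. In RNA from whole tissue, fewer microglia and less RNA of these genes per microglial cell cannot be told apart.

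Values are normalised counts, the reads of each gene divided by 1 scaling factor per library. The libraries held 23369928 to 32091173 counted reads in the WT group and 21679622 to 30859179 in the KO group. The targeted gene, Usf1, lay between 842 and 1583 (median 1512) normalised counts in the WT mice and between 117 and 163 (median 139) in the KO mice, so that every library lay on the side of its label. WT 493 had the lowest Usf1 value of the WT mice, and the next lowest was 1425. Ttr, the transthyretin gene of the choroid plexus, reached 52017 in WT 490 and 149554 in WT 493, while the other 10 mice lay between 139 and 1530. These libraries therefore stood apart in choroid plexus RNA, and fits without them are given for the median and the calls of the members. The test was limma, run on log2(normalised count + 1) with no term other than genotype, over the 18221 genes whose mean reached 10 normalised counts. Log2 fold changes are KO minus WT on that scale, with Benjamini-Hochberg adjustment over all tested genes and a threshold of 0.05.

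The stretches before the gene starts are shown for Kcnk13 and Olfml3, the members that passed the threshold, and for P2ry12, whose stretch holds the E-box that USF-1 binds. They are the 250 bases before the RefSeq start on the strand of the gene (GRCm38.p6), at chr12:99964249-99964498 on the forward strand for Kcnk13, chr3:103738002-103738251 on the reverse strand for Olfml3 and chr3:59262986-59263235 on the reverse strand for P2ry12. Capitals mark CACGTG.
Kcnk13: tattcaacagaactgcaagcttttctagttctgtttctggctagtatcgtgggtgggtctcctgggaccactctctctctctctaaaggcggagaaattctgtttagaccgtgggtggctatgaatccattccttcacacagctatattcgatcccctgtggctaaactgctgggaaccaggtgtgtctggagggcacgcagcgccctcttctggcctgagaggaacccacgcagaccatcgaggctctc
Olfml3: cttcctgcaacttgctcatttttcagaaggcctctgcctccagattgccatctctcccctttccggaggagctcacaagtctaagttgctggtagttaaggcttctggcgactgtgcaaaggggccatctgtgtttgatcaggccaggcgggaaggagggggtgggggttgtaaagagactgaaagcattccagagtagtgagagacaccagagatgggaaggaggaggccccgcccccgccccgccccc
P2ry12: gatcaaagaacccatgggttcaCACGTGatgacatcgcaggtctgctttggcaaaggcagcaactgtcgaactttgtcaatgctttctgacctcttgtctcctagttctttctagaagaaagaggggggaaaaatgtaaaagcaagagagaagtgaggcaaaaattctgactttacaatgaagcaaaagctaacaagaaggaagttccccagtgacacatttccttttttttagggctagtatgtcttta
The E-box was searched as CACGTG, which reads alike on both strands, from 250 bases before to 50 bases after each start. It was found in 3 of 37 windows of the 29 members in the RefSeq table (8.11%), those of P2ry12, Siglech and Runx1, and in 2349 of all 32851 windows (7.15%). Its first base lay 228 bases before the start in P2ry12, 56 in Siglech and 71 in Runx1. The log2 fold changes of these 3 genes were −0.21, −0.19 and −0.041, and none passed the threshold. GAGGAAGT, a motif of the kind bound by PU.1, was searched on both strands and found in 4 windows of members (10.8%), those of Inpp5d, Apbb1ip, Cd53 and Hpgds, against 3.20% of all windows. Csf1r, Gpr34, Selplg, Spi1, Tmem119, Tyrobp and Unc93b1 were not matched.

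All 36 members passed the limit on the mean, with at least 11 reads in every mouse, and all 36 had a lower fitted value in KO than in WT mice. The log2 fold changes ran from −0.74 to −0.041, with a median of −0.19, equal to 12.5% less, against a median of −0.00065 over all tested genes. Below 0 lay 50.2% of all tested genes, and 13.2% lay at or below the median of the members. Only 2 members passed the threshold, Kcnk13 and Olfml3, where 0.741% of all tested genes were called lower and 0.159% higher, and 0 members were called higher by limma, edgeR or DESeq2. At an unadjusted p under 0.05, 17 members were lower and 0 higher, against 7.60% of all tested genes lower. The quasi-likelihood test of edgeR on the recovered reads called the same 2 members, where it called 0.697% of genes lower. DESeq2 called 4, adding Selplg and Slc2a5, where it called 2.84% of genes lower. In 3 members, Kcnk13, Olfml3 and Slc2a5, every KO mouse lay below every WT mouse, against 1.08% of all tested genes.

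Most members lay close together. Between −0.30 and −0.10 lay 26 of the 36 log2 fold changes, 6 lay lower and 4 higher. Their quartiles were −0.24 and −0.13, and the median standard error of a single member was 0.097. The 95% interval of 33 members held the median of −0.19, and the intervals of Kcnk13, Olfml3 and Slc2a5 lay wholly below it. The 36 genes were measured in the same mice, so these intervals are not independent of each other, and the count is a description. The median comes from the same 36 values, and the intervals are wide against the spread of those values. Holding the median therefore does not show that the members differed alike. The intervals of 17 members lay wholly below 0, and those of the others also held 0.

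**Figure D1:**
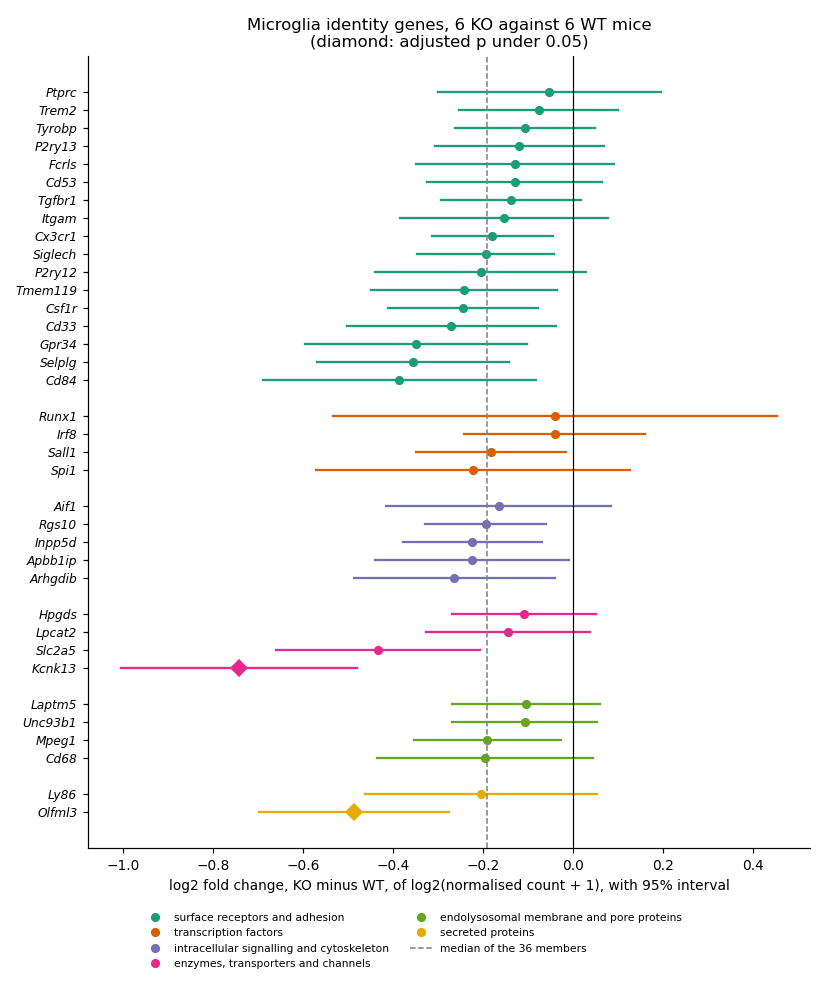
Log2 fold change (KO minus WT, x axis) of each of the 36 members with its 95% interval, grouped by role, with a dashed line at the member median of −0.19 and diamonds for an adjusted p under 0.05 (limma). All 36 points lie left of 0, and the intervals of Kcnk13, Olfml3 and Slc2a5 do not reach the dashed line.

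Kcnk13 (ENSMUSG00000045404; chromosome 12, 99964499 to 100062682, forward strand, GRCm38) had normalised counts from 165 to 248 (median 203) in the WT mice and from 96.3 to 147 (median 122) in the KO mice. Every KO mouse lay below every WT mouse, with WT 522 the lowest of the WT mice and KO 488 the highest of the KO mice. The means were 204 ± 29.0 (SD, n = 6) and 122 ± 20.6 (SD, n = 6), and the KO mean was 59.7% of the WT mean. The log2 fold change was −0.74 (standard error (SE) 0.12, 95% interval −1.01 to −0.48), with an adjusted p of 0.0105 from limma, 0.0128 from edgeR and 5.82e-06 from DESeq2. The two-sided exact permutation test gave p = 0.00216, the smallest that 6 mice against 6 allow. The call held in limma without each of the 12 mice in turn, with adjusted p from 0.0037 to 0.0363. It was lost without both mice of high Ttr, with a log2 fold change of −0.70 and an adjusted p of 0.0590. With log2 Ttr as a covariate over all 12 mice the call held (−0.72, adjusted p = 0.0218 with limma). Apart from a miRNA gene without reads, no other gene overlaps Kcnk13 in the deposited annotation.

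Olfml3 (ENSMUSG00000027848; chromosome 3, 103722222 to 103738001, reverse strand) encodes a secreted olfactomedin-like protein that microglia express. Its normalised counts ran from 449 to 672 (median 516) in the WT mice and from 312 to 407 (median 383) in the KO mice. The genotypes did not overlap, with WT 522 the highest mouse and KO 564 the lowest. The means were 531 ± 86.0 and 376 ± 34.9 (SD, n = 6 each), and the log2 fold change was −0.49 (SE 0.098, adjusted p = 0.0334 with limma, exact permutation p = 0.00216). Olfml3 passed the threshold without WT 490, WT 493, WT 522 or KO 488, and missed it without each of the other 8 mice, with adjusted p up to 0.0938. Its log2 fold change lay between −0.53 and −0.42 over these 12 fits.

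Slc2a5, the fructose transporter GLUT5 of microglia, ran from 96.6 to 156 (median 117) in the WT mice and from 82.6 to 94.1 (median 86.6) in the KO mice. All KO mice again lay below all WT mice, the nearest pair being KO 530 and WT 493. The log2 fold change was −0.43 (SE 0.11), with an adjusted p of 0.0767 from limma, 0.0661 from edgeR and 0.0142 from DESeq2. Without WT 493 it passed the threshold in limma (adjusted p = 0.0413). The remaining members of this class, Hpgds, which makes prostaglandin D2, and Lpcat2, which remodels phospholipids, had log2 fold changes of −0.11 and −0.15 and overlapped between the genotypes.

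Among the receptors and adhesion molecules, 0 of 17 passed the threshold in limma or edgeR and 1 in DESeq2, while 8 had an unadjusted p under 0.05 in limma, all lower. Their median log2 fold change was −0.18. The lowest values were those of Cd84, a SLAM family receptor (−0.39, SE 0.14), Selplg, the ligand of P-selectin (−0.36, SE 0.10), and Gpr34, a receptor for lysophosphatidylserine (−0.35, SE 0.11). Cd84 lies 0.421 Mb from Usf1 on chromosome 1, and its adjusted p was 0.237 with limma. Selplg ran from 599.8 to 995 (median 711) in the WT mice and from 498 to 621 (median 589.6) in the KO mice. In Selplg 5 of 6 KO mice lay below every WT mouse, and KO 530 lay above WT 493, the lowest WT mouse. Its adjusted p was 0.119 with limma and 0.0236 with DESeq2.

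Csf1r, Cx3cr1, P2ry12 and Tmem119, which are widely used to mark microglia, had smaller fold changes than Kcnk13, and each overlapped between the genotypes. Csf1r, the receptor for CSF-1 and IL-34 on which the survival of microglia depends, ran from 2066 to 3196 (median 2516) in the WT mice and from 2015 to 2244 (median 2161) in the KO mice. WT 522 was highest and WT 493 lowest of the WT mice, and only WT 493 reached into the KO range. Its log2 fold change was −0.25 (SE 0.078, adjusted p = 0.168 with limma), and without WT 493 the adjusted p was 0.0477. Csf1r shares 873 exonic bases with Hmgxb3 on the other strand, whose log2 fold change was 0.029.

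Cx3cr1, the receptor of the neuronal chemokine fractalkine, ran from 1051 to 1393 (median 1223) in the WT mice and from 953 to 1143 (median 1078) in the KO mice. Again WT 493 was the lowest WT mouse and lay among the KO mice, and KO 488 was the lowest of all. The log2 fold change was −0.18 (SE 0.063, adjusted p = 0.212 with limma). P2ry12, the ADP receptor that steers microglial processes to damage, ran from 525 to 862 (median 728) in the WT mice and from 498 to 697 (median 601) in the KO mice. The ranges overlapped widely, and the log2 fold change was −0.21 (SE 0.11, adjusted p = 0.438 with limma). Tmem119, a membrane protein used to tell microglia from blood macrophages, ran from 450.1 to 738 (median 531) in the WT mice and from 422 to 506 (median 449) in the KO mice. WT 522 lay far above the rest, and the log2 fold change was −0.24 (SE 0.096, adjusted p = 0.278 with limma).

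**Figure D2:**
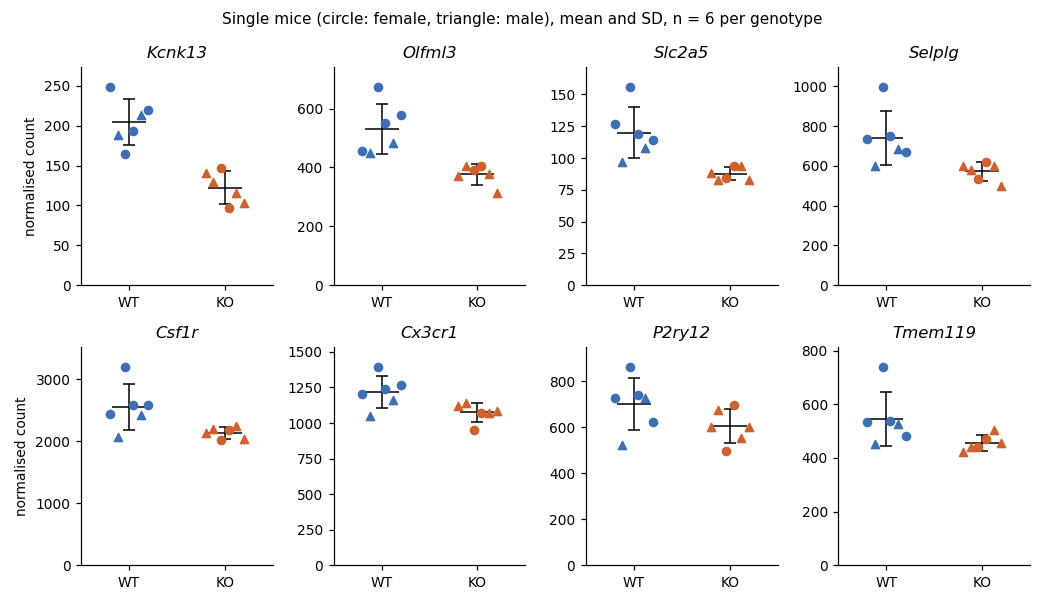
Normalised counts (y axis, from 0) of 8 members in single WT and KO mice, with circles for females, triangles for males, and the mean with SD for n = 6 per genotype. The genotypes do not overlap in Kcnk13, Olfml3 and Slc2a5 and overlap in Selplg, Csf1r, Cx3cr1, P2ry12 and Tmem119.

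The other receptors had log2 fold changes between −0.27 and −0.053. Siglech and Cd33, lectins that bind sialic acid, had log2 fold changes of −0.19 and −0.27, and 5 and 4 of the 6 KO mice lay below every WT mouse. P2ry13, a second ADP receptor, stood at −0.12, Tgfbr1, a receptor of TGF-β, at −0.14, and Itgam, the integrin chain CD11b, at −0.15. Itgam shares 68.7% of its exonic bases with Gm49368 on the same strand, to which a mean of 0.136 normalised counts was assigned, so its level is uncertain. Fcrls, an Fc receptor-like protein, and Cd53, a tetraspanin, both stood at −0.13. Trem2, which senses lipids and cell debris, and Tyrobp, the adaptor through which it signals, stood at −0.077 and −0.11. Ptprc, the phosphatase CD45, stood at −0.053, with 57.3 to 92.3 in the WT mice and 66.9 to 72.4 in the KO mice. Its KO values therefore lay within the WT range.

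The transcription factors of microglia had the smallest median log2 fold change of the 6 roles, −0.11, with 0 of 4 past the threshold with limma, edgeR or DESeq2 and 1 at an unadjusted p under 0.05. Sall1, which keeps microglia from taking on the profile of other macrophages, stood at −0.18 (SE 0.078), and Spi1, the gene of PU.1, at −0.22 (SE 0.16). Irf8 ran from 99.4 to 123 in the WT mice and from 88.6 to 125 in the KO mice, with a log2 fold change of −0.042 (SE 0.094). Runx1 had the lowest level of all members, 11.7 to 30.7 in the WT mice and 13.4 to 24.6 in the KO mice, with a log2 fold change of −0.041 (SE 0.23). For Irf8 and Runx1 the genotypes covered the same range, and the 95% interval of Runx1, −0.53 to 0.45, was too wide at this level to show a difference of the size of that in Olfml3.

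The 5 signalling and cytoskeletal genes lay between −0.26 and −0.17, and 4 of them had an unadjusted p under 0.05, with 0 past the threshold in limma, edgeR or DESeq2. They were Arhgdib, an inhibitor of small GTPases (−0.26), Apbb1ip, which links Rap1 to integrins (−0.22), Inpp5d, the inositol phosphatase SHIP1 (−0.22), and Rgs10, a brake on G protein signalling (−0.19). The fifth, Aif1, encodes the actin-binding marker IBA1 and stood at −0.17 with 84.9 to 134 in the WT and 79.6 to 104 in the KO mice. The endolysosomal proteins Cd68, Mpeg1, Unc93b1 and Laptm5 stood at −0.20, −0.19, −0.11 and −0.11, and 0 of 4 passed the threshold in limma, edgeR or DESeq2, with Mpeg1 alone at an unadjusted p under 0.05. Ly86, the secreted partner MD-1 of a Toll-like receptor homologue, stood at −0.20 and overlapped between the genotypes.

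Per 1000 bases of exon, the mean WT level of the members ran from 1.74 normalised counts in Runx1 to 442 in Csf1r, with a median of 89.7. Kcnk13, at 65.7, stood at rank 22 of the 36. The largest fold change was therefore not that of a gene at either end of the levels.

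The members were then followed mouse by mouse. For each gene, the log2 value of a mouse was taken relative to the mean of that gene over the 12 mice, and the 36 values were averaged. This mean lay between −0.11 and 0.33 in the WT mice and between −0.18 and −0.029 in the KO mice. Of the WT mice, 5 lay at 0.060 or higher and above every KO mouse, and WT 493 alone lay among the KO mice. WT 522 was the highest mouse for 25 of the 36 members, and WT 493 was the lowest WT mouse for 28. KO 488 was the lowest of all mice for 11 members. The summed normalised count of the members ran from 12664 to 17566 in the WT and from 12124 to 13432 in the KO mice, and the KO mean of 12753 ± 511 (SD, n = 6) was 86.1% of the WT mean of 14819 ± 1579 (SD, n = 6).

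Both extreme WT mice moved the size of the difference without turning it. The median log2 fold change of the members was −0.14 without WT 522 and −0.22 without WT 493, the ends of the range over the 12 fits that left out a mouse. In each of these fits at least 35 of the 36 members stayed below 0. Without WT 493 limma called 4 members, Csf1r and Slc2a5 beside Kcnk13 and Olfml3, where it called 165 genes in all. Without WT 522 it called Kcnk13 and Olfml3, where it called 515 genes in all. Without both WT 490 and WT 493 the median was −0.25, with all 36 below 0. In that fit 1 member, Olfml3, passed the threshold, where 59 genes passed in all. With log2 Ttr as a covariate over the 12 mice the median was −0.22, with all 36 below 0. There limma called Kcnk13 and Olfml3, where it called 119 genes in all.

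**Figure D3:**
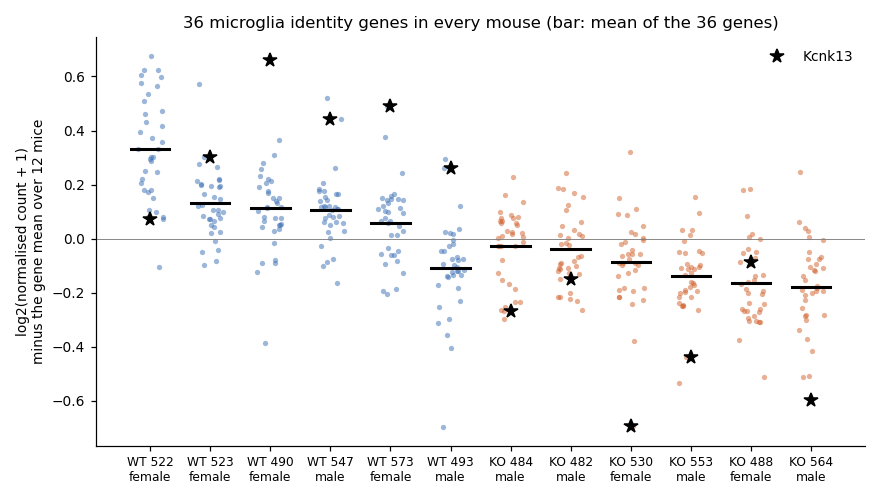
Each point is 1 of the 36 members in 1 mouse, as log2(normalised count + 1) minus the mean of the gene over the 12 mice (y axis); bars are the mean of the 36 genes and stars are Kcnk13. The bars of 5 WT mice lie above all KO bars, WT 493 lies among the KO mice, and the star of WT 522 lies far below the bar of that mouse.

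Kcnk13 did not follow the other members from mouse to mouse. WT 522 had the highest mean of the other 35 members, 0.34 above the mean of the 12 mice, and the lowest Kcnk13 of the WT mice, 0.074 above. WT 493 had the lowest mean of the other 35 among the WT mice, −0.12, and a Kcnk13 value of 0.26. Over the 6 WT mice, Pearson's r of Kcnk13 with the mean of the other 35 was −0.38 (exact permutation p = 0.450) and Spearman's rho −0.26 (exact permutation p = 0.658). Over the 6 KO mice r was 0.12 (exact permutation p = 0.807) and rho −0.086 (exact permutation p = 0.919). Without the 2 mice farthest from the median of the other members, r was −0.39 in the WT and 0.50 in the KO mice. In the WT mice these 2 were WT 493 and WT 522. Leaving them out also lowered r for Olfml3 from 0.75 to −0.56 and for Slc2a5 from 0.94 to 0.25. The r without these 2 WT mice therefore does not set Kcnk13 apart from Olfml3. Over all 6 mice, r taken for each of the 36 members had a median of 0.84 in the WT and 0.50 in the KO mice. Kcnk13 had the lowest r of all members in the WT mice, while in the KO mice 8 members had a lower one, with Tmem119 lowest at −0.46. These r share the same 6 mice and their depth, and are given as descriptions.

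With the mean of the other 35 members as a covariate in limma, the log2 fold change of Kcnk13 was −0.81 (SE 0.17), and that of Olfml3 was −0.25 (SE 0.10) and of Slc2a5 −0.19 (SE 0.11). The value of Kcnk13 was no smaller than without the covariate, while those of Olfml3 and Slc2a5 were smaller. The covariate was the mean of the 35 members other than Kcnk13 for every gene, so it held Olfml3 and Slc2a5 themselves. In such a fit the fold changes of those 35 average to 0 by construction. Their smaller values, and the share of members below 0, were thus largely set in advance and are no comparison with Kcnk13. In this fit limma called 74 genes in all and 0 of the 36 members, with adjusted p of 0.0609 for Kcnk13, 0.254 for Olfml3 and 0.455 for Slc2a5, and 21 of the 36 lay below 0. At an unadjusted p under 0.05 lay 3 members, Kcnk13, Olfml3 and Runx1, the last with a log2 fold change of 0.53. EdgeR and DESeq2 were not run with this covariate.

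Markers of myelinating oligodendrocytes were lower in the KO mice too. All 9 had log2 fold changes below 0, with a median of −0.66, and 9 had an unadjusted p under 0.05, although 0 passed the threshold in limma or edgeR, while DESeq2 called 9. Mbp, the myelin basic protein gene, ran from 46239 to 99872 in the WT and from 40450.4 to 63877 in the KO mice. WT 522, the mouse with the highest microglial mean, had the lowest oligodendrocyte mean of the WT mice, −0.49, against 0.31 to 0.70 in the other 5. The summed level of these markers lay between 86861 and 188216 in the WT and between 74882 and 114527 in the KO mice.

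Kcnk13 followed these markers, a relation looked at after the values had been seen. Over the WT mice Pearson's r with their mean was 0.88 (exact permutation p = 0.0181) and Spearman's rho 0.83 (exact permutation p = 0.0583). Over the KO mice r was 0.80 (exact permutation p = 0.0653) and rho 0.89 (exact permutation p = 0.0333). Without the 2 mice farthest from the median of the markers, r was 0.998 in the WT and 0.94 in the KO mice, each over 4 mice. Over the same 4 mice, r with the markers was also above 0 for Slc2a5, at 0.70 in the WT and 0.81 in the KO mice, against −0.67 and −0.75 over 6. For Olfml3 it was −0.14 in the WT and 0.73 in the KO mice, against −0.77 and −0.080 over 6. The r over 4 mice therefore do not set Kcnk13 apart from these genes. Of 12 such relations, computed for Kcnk13, Olfml3 and Slc2a5 against both means in each genotype, none passed after Benjamini-Hochberg adjustment, and the lowest adjusted p were 0.133 for r and 0.200 for rho, both from exact permutation tests. In the WT mice no other member had an r with the oligodendrocyte markers above that of Kcnk13, and 4 of the 36 had one above 0. In the KO mice 1 member, Tyrobp, had a higher one, and 18 of the 36 lay above 0.

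With the mean of the oligodendrocyte markers as a covariate, an alternative added after the data were seen, the log2 fold change of Kcnk13 was −0.41 (SE 0.12, adjusted p = 0.261 with limma). Those of Olfml3 and Slc2a5 were −0.69 and −0.65, larger than without it, with adjusted p of 0.0596 and 0.0831. The median of the members was −0.28, with 35 of 36 below 0, 19 at an unadjusted p under 0.05, and 0 past the threshold, where limma called 19 genes in all. The fitted difference of Kcnk13 was smaller with this covariate, and the median of the members was not. The markers themselves were lower in the KO mice, so over 12 mice the fit cannot cleanly part genotype from oligodendrocyte level. WT 522 joined the highest member mean, 0.33, to the lowest oligodendrocyte mean of the WT mice, −0.49, and the fit was not run without it.

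**Figure D4:**
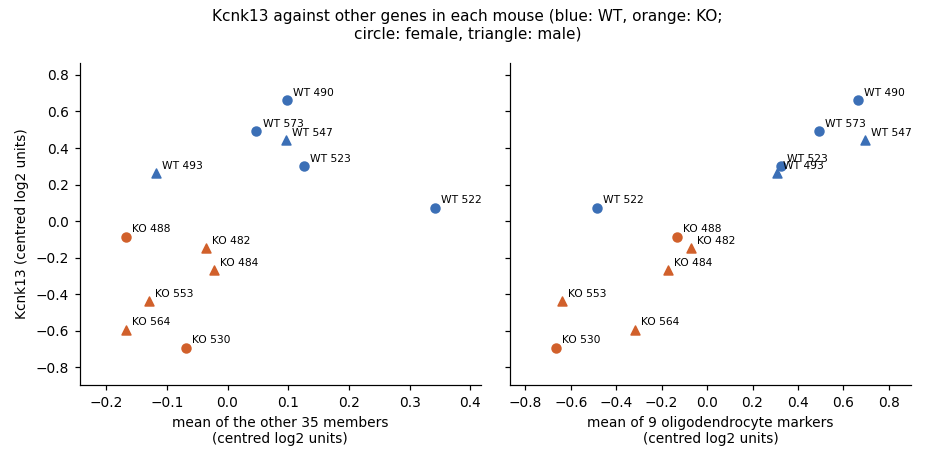
Kcnk13 in each mouse (y axis, log2 value relative to its mean over 12 mice) against the mean of the other 35 members (left) and the mean of 9 oligodendrocyte markers (right), in the same units, with WT in blue, KO in orange, circles for females and triangles for males. WT 522 lies far right and low on the left, and far left of the other WT mice on the right, where Kcnk13 rises with the markers within each genotype.

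Among the 14 genes of the channel family of Kcnk13, the two-pore-domain potassium channels, 10 were tested and their median log2 fold change was −0.017. Kcnk13 was the only member of the family called lower, and Kcnk10, the channel TREK-2, was called higher. Kcnk10 ran from 277 to 338 (median 306) in the WT mice and from 335 to 431 (median 402) in the KO mice. In 5 of 6 KO mice it lay above every WT mouse, and KO 530 lay just below WT 547. The log2 fold change was 0.38 (SE 0.067, adjusted p = 0.0173 with limma).

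Other microglial genes lay at a like level to the members. Of 9 complement and lysosomal genes of microglia, 8 lay below 0, with a median of −0.21, and 7 had an unadjusted p under 0.05, while 0 passed the threshold in limma or edgeR and 3 in DESeq2. The most abundant of them, Cst3, stood at 0.0034, and Ctsd, the cathepsin D gene, at −0.24, with every KO mouse below every WT mouse. Of 30 further microglial receptors and enzymes, 29 were tested, 26 lay below 0 and the median was −0.22. Limma called 2 of these lower, Gpr183, a receptor for oxysterols, and Ptgs1, the cyclooxygenase COX-1. Gpr183 ran from 17.5 to 28.6 (median 25.2) in the WT and from 10.9 to 19.4 (median 12.4) in the KO mice, with a log2 fold change of −0.84 (SE 0.18, adjusted p = 0.0424 with limma). Only KO 553 reached above the lowest WT mouse, WT 523. Ptgs1 ran from 282 to 359 (median 310.2) in the WT and from 198 to 268 (median 248) in the KO mice without overlap, with a log2 fold change of −0.39 (SE 0.083, adjusted p = 0.0456 with limma).

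The ligands on which microglia depend were spread around 0. Of 9 ligands and partners, 5 lay below 0, the median was −0.020, and 0 passed the threshold in limma, edgeR or DESeq2, with 1 at an unadjusted p under 0.05, which was higher. Csf1 and Il34, the ligands of Csf1r, stood at −0.020 and −0.040. Cx3cl1, the ligand of Cx3cr1, stood at 0.089, and Cd47, a signal that restrains phagocytosis, at 0.097.

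Genes of activated microglia gave no call either. Of 12 such genes 9 were tested, 6 lay below 0 and the median was −0.24, with 0 called by limma, edgeR or DESeq2 and 2 at an unadjusted p under 0.05, 1 in each direction. The most abundant were Apoe at 0.11 (SE 0.049) and Axl at −0.095 (SE 0.058). Of 8 cytokines and chemokines 1, Il1a, passed the limit on the mean, and it stood at −0.75 without a call. Of 10 interferon response genes 8 lay below 0, with a median of −0.099 and 1 call, by DESeq2 only, and of 4 tested genes of MHC class II 2 lay below 0, with a median of 0.057 and 0 calls by limma, edgeR or DESeq2.

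Other macrophages and blood cells could also carry members such as Ptprc, Itgam and Csf1r. Of 8 genes of border macrophages 5 were tested, all below 0, with a median of −0.39, 0 called by limma, edgeR or DESeq2 and 0 at an unadjusted p under 0.05. Their summed level was 84.7 to 224 in the WT and 59.4 to 242 in the KO mice, and the most abundant were Mrc1 (−0.30) and F13a1 (−0.31). The 9 lymphocyte genes were all under the limit on the mean, with a sum of 10.6 to 20.7 in the WT and 2.24 to 31.99 in the KO mice. Of 8 genes of monocytes and granulocytes 1 was tested, Ly6c2 at −0.16, while Ly6g was at 0 in every mouse. Genes of red blood cells, 5 of 5 above 0 with a median of 0.46, were not called by limma, edgeR or DESeq2, and 2 had an unadjusted p under 0.05. The part of these cells in the difference of the members was not tested.

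Genes of oligodendrocyte precursors had a median log2 fold change of −0.26, lower than that of the members, with 6 of 6 below 0 and 5 at an unadjusted p under 0.05. For the remaining cell types the median log2 fold change was −0.029 over 10 astrocyte genes, 0.034 over 8 endothelial genes, −0.079 over 6 pericyte genes, 0.13 over 7 genes of excitatory neurons and −0.024 over 7 genes of inhibitory neurons. It was −1.15 over 8 genes of the choroid plexus, whose summed level was 858 to 163890 in the WT and 992 to 2802 in the KO mice. Limma and edgeR called 0 of these 51 genes, precursors included and Cspg4 being in 2 lists, of which 9 had an unadjusted p under 0.05 in limma, and DESeq2 called 7, all lower. The part of oligodendrocyte precursors, astrocytes, neurons and choroid plexus in the difference of the members was not tested beyond the fits on Ttr.

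**Figure D5:**
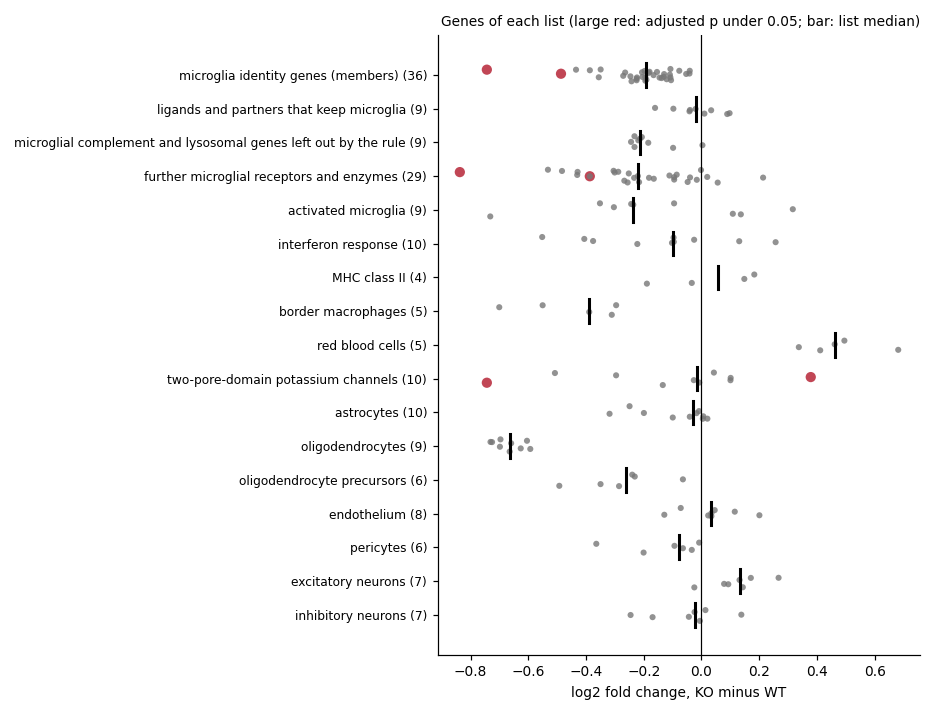
Log2 fold change (KO minus WT, x axis) of the tested genes of each list with at least 4 tested genes, apart from the choroid plexus, with the number tested in brackets, the list median as a bar and genes with an adjusted p under 0.05 (limma) in large red. The bars of the members, of the complement and lysosomal genes and of the further microglial genes lie between −0.22 and −0.19, and that of the oligodendrocyte genes at −0.66.

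Sex was unequal between the groups, so its effect on the members was fitted beside genotype. The study's text gives another split of the sexes for these mice, and the sexes of the labels were used. Xist, the transcript of the inactive X chromosome, lay between 16816 and 22913 in the 6 mice labelled female and between 15.5 and 51.0 in the 6 labelled male, and Ddx3y, a gene of the Y chromosome, between 0.795 and 3.41 and between 958 and 1341, so that every library lay on the side of its labelled sex. Limma, edgeR and DESeq2 each called 0 members for male against female, and 1 member, Fcrls, had an unadjusted p under 0.05 in limma, against 6.45% of all tested genes (limma called 0.0549%). The median of male minus female was −0.064, and it rested on single mice, with 0.015 without WT 493 and −0.11 without KO 488, where 4 members had an unadjusted p under 0.05. With sex as a covariate the median log2 fold change of the members between genotypes was −0.17, and Kcnk13 was the only member called (−0.74, adjusted p = 0.0310 with limma), with Olfml3 at an adjusted p of 0.0802.

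Within the sexes, the median log2 fold change of the members was −0.26 over 4 WT and 2 KO females, with 36 of 36 below 0, and −0.054 over 2 WT and 4 KO males, with 29 of 36 below 0. WT 493, the WT mouse with the lowest microglial mean, is 1 of the 2 WT males. Kcnk13 stood at −0.77 (SE 0.22) in females and −0.71 (SE 0.15) in males, and 0 members were called in either sex. The interaction of genotype and sex, the difference of the KO effect in males from that in females, had a median of 0.22 over the members and was above 0 in 32 of 36, but 0 members were called by limma, edgeR or DESeq2 and 3 had an unadjusted p under 0.05 in limma, against 3.45% of all tested genes. Without each mouse in turn the median lay between 0.085, without WT 493, and 0.30, without WT 547, and the 3 members became 0 without KO 488, 1 without WT 493, 5 without WT 490, KO 530, KO 564 or the WT female other than WT 490, WT 522 and WT 523, and 8 without WT 547.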

How the data were processed

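RNA of 12 hippocampi was sequenced by the authors after library preparation with a kit that does not mark strand; their notes name STAR 2.5.0a, edgeR 3.22.2 and mm10, while the methods name DESeq2. The deposited signal is what the authors got from the count of reads per gene after each library had been scaled by 1 factor, with a tool that these sources do not settle. The counter and its strand setting are not given in the sources used here. Whole reads were recovered from each library. All 12 columns were used, and no pair was a repeat.

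Limma 3.58.1 (R 4.3.3) was run with a mean-variance trend on log2(normalised count + 1). P-values are two-sided, and those of limma, edgeR and DESeq2 weigh a difference against the spread between mice. edgeR 4.0.16 and DESeq2 1.42.0 used the recovered reads. Other alternatives were pseudocounts of 0.5 and 5, a mean of at least 50 or no such limit, equal totals and quantile normalisation. Covariates (sex, log2 Ttr, mean of the 35 members other than Kcnk13), leaving out each mouse and a threshold of 0.1 were further alternatives. The steps were tested on simulated counts.

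Full statistics are given for members past the threshold in a fit of all mice and for Cx3cr1, P2ry12, Tmem119 and Csf1r. Of 20 further gene lists, genes past the threshold are named and otherwise the 2 most abundant where a list bears on microglia. The members and lists were chosen, and Kcnk13 was singled out, with earlier results of these data known. Csf1, Il34, Gpr34, Cd84 and the relation of Kcnk13 to oligodendrocyte markers were singled out after their values were seen. Gene coordinates are GENCODE M21 on GRCm38, and exon lengths were taken from it. Plots were drawn with Python and matplotlib.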

Additional observations from a re-analysis of the deposited data

Results flagged for a closer look

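A mouse was looked at more closely where its gap to the nearest mouse of its genotype, as a share of the range of the 6 mice, was over the 95% critical value of Dixon. Of 84 groups of values tested, 8 had such a mouse, where chance gives about 1 in 20, or 4.2.

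Of these, 5 were high values of WT 522. They were Siglech at 383 against 299 to 329 in the other WT mice, Cd33 at 298 against 193 to 220.3, Tmem119 at 738 against 450.1 to 539, Aif1 at 134 against 84.9 to 101 and Laptm5 at 1351 against 976 to 1076. The remaining WT mouse of this kind was WT 493, low in Ly86 at 118 against 167 to 193 and low in Usf1 at 842 against 1425 to 1583. In the KO mice the value of Gpr183 in KO 553, 19.4 against 10.9 to 13.02, lay apart. Normalised counts are given throughout.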

How the results depend on the processing

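The count of 2 members lower in KO moved with the setting. It was 1 with sex as a covariate, with quantile normalisation or without the mice of high Ttr, and 4 with DESeq2. At a threshold of 0.1 Slc2a5 (adjusted p = 0.0767 with limma) joined the 2. The count was 0 with the oligodendrocyte markers or the 35 members other than Kcnk13 as a covariate, and in females or males alone. Without each mouse in turn it lay between 1 and 4. The median log2 fold change of the members kept its sign in all fits run and lay between −0.22 and −0.14 without each mouse in turn. It was −0.054 in males alone. With the 35 members other than Kcnk13 as a covariate it was −0.0090, in a fit that centres the members near 0 by construction. Kcnk13 missed the threshold with the other 35 members as a covariate (−0.81), with the oligodendrocyte markers as a covariate (−0.41), without the mice of high Ttr (−0.70), in females (−0.77) and in males (−0.71), and passed it in the others. Fits within a sex, on the oligodendrocyte markers and without the mice of high Ttr were chosen after seeing the data. The fit with the 35 members other than Kcnk13 as a covariate was set at the start but is left out of the next count. With that covariate 21 members lay below 0 and the others above it, with Runx1 at 0.53. Of the 803 values of the other 35 members under the remaining alternatives set at the start, 7 lay above 0, all without a call. They were Irf8 with quantile normalisation (0.012) and without KO 553 (0.0033), Ptprc without WT 490 (0.014), and Runx1 with sex as a covariate (0.11), without KO 564 (0.058), without WT 523 (0.070) and without WT 522 (0.080). Without each mouse in turn Irf8 lay between −0.095 and 0.0033, Ptprc between −0.12 and 0.014 and Runx1 between −0.18 and 0.080. A mean of at least 50 left out Runx1 and Cd84. The count of 0 members higher, and of 0 for sex and for the interaction, held in all fits run. No paired analysis was possible because the labels give no replicate number that the genotypes share. Members with few reads, such as Runx1, limit what can be seen, since counting error is largest there.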
